A study of Mus musculus with 2 samples.

Results

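The comparison was between cells dissected from the front of the mouse second heart field and cells dissected from its middle at embryonic stage E10.5. The front was represented by 76 cells, 31 labelled outflow tract and 45 labelled anterior, and their counts were pooled. The middle was represented by 331 cells. Both sets came from the E10.5 sample, which held 967 of the 1500 cells in the series, and each cell was assigned by the suffix of its barcode, which the sample description ties to a position. Genes were compared when they had at least 30 counts over the outflow tract, anterior and middle libraries, which 6603 of 17348 genes did; a gene called tested below is one that met this minimum.

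Wild-type mice were the source at both stages, E9.5 and E10.5, with no other allele or agent named. The labels give the cells as Osr1+ without saying how they were chosen, and every cell held at least 1 count of Osr1, a zinc finger transcription factor gene of lateral and intermediate mesoderm. There was 1 sample per stage and 1 library per position, the labels do not give the number of embryos, and a position cannot be told apart from its library. No p-value was computed for this reason, and every interval below is an exact 95% interval that covers counting error only, and cells of 1 library are not replicates.

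The second heart field is mesoderm of the pharyngeal and dorsal body wall that adds cells to both ends of the heart tube after the first heart tube has formed. Its anterior part, which lies beside the pharyngeal arches and their neural crest mesenchyme, supplies outflow tract muscle. Its posterior part adjoins foregut and lung mesenchyme, supplies the atria and the dorsal mesenchymal protrusion, and is known for Tbx5, Hedgehog and retinoic acid signalling. Foxf1, Wnt2 and Osr1 mark cells at that posterior junction, and Isl1 is expressed through much of the field.

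The libraries had similar depth per cell, with a median of 6084 unique molecular identifiers (UMIs) in outflow tract, 5273 in anterior and 5263 in middle cells. Totals were 196599 counts in outflow tract, 253936 in anterior and 2041441 in middle. No barcode was shared among the 3 libraries. Scrublet, which scores cells for resemblance to simulated doublets, marked 3 of 31 outflow tract cells, 12 of 45 anterior cells (26.7%) and 5 of 331 middle cells (1.51%). Of 9 second heart field markers, all had at least 1 count in the pooled cells, but Nkx2-5 had 1 and Fgf10 had 1, and Isl1 had a UMI in 9.21% of pooled cells against 29.9% of middle cells. Osr1 itself stood at 178 CPM (counts scaled to the same total in every library) in the pooled cells and 251 in the middle cells, and 93.5% of outflow tract and 95.6% of anterior cells held exactly 1 Osr1 UMI against 65.9% of middle cells.

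Marker lists for the cell types such a dissection could hold were summed in each arm. Arch mesenchyme markers summed to 941 CPM in pooled and 547 CPM in middle cells, and somite markers to 118 and 31.8 CPM, with the anterior library (169 CPM) above the outflow tract (50.9 CPM). Second heart field markers summed to 306 CPM in pooled and 428 CPM in middle cells, epicardial markers to 79.9 and 257 CPM, branchiomeric muscle markers to 35.5 and 190 CPM, and foregut mesenchyme markers to 151 and 411 CPM. Epithelial markers were at 218 and 400 CPM and erythroid markers at 1041 and 5500 CPM. Smooth muscle markers were at 602 and 338 CPM, but at 137 CPM in the outflow tract library and 961 CPM in the anterior library. Of these pairs of sums, those of arch mesenchyme, second heart field, epithelial and smooth muscle markers differed by less than 2-fold. The following lists also differed by less than 2-fold. Cushion mesenchyme was at 604 and 378 CPM, limb and lateral mesoderm at 235 and 158, cartilage at 142 and 88.2 and cardiomyocyte at 102 and 70.5. Neural was at 75.5 and 51.9, neural crest and glia at 51.1 and 41.6, endothelial at 44.4 and 61.2, nephric at 11.1 and 10.3 and leukocyte at 4.44 and 2.45. All 7 hepatoblast markers were at 0 in the pooled cells, as were the endothelial markers Emcn, Tek, Cdh5, Pecam1 and Nfatc1. Osr1 made up most of the second heart field sum in both arms, 80 of 138 counts in pooled and 512 of 873 in middle cells. The part of these cell types in the differences below was not tested.

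At a 2-fold difference, 156 genes (2.36%) were higher and 288 genes (4.36%) were lower in outflow tract plus anterior cells. The median log2 ratio over all tested genes was 0.02. Counts were small: 137 of the higher and 246 of the lower genes had fewer than 100 counts in all, and the interval of the ratio lay wholly on 1 side of no difference for 124 of the higher and 122 of the lower genes. The 2 front libraries did not contribute equally. Both were at least 2-fold from middle for 52 of the higher genes, the outflow tract alone for 45 and the anterior library alone for 59. For the lower genes these numbers were 96, 43 and 95, and for the other 54 neither library was past 2-fold alone. The minimum of 30 counts was met exactly by 73 genes, 19 of them past 2-fold, and 95 genes lay just under it at 29 counts, also with 19 past 2-fold.

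**Figure D1:**
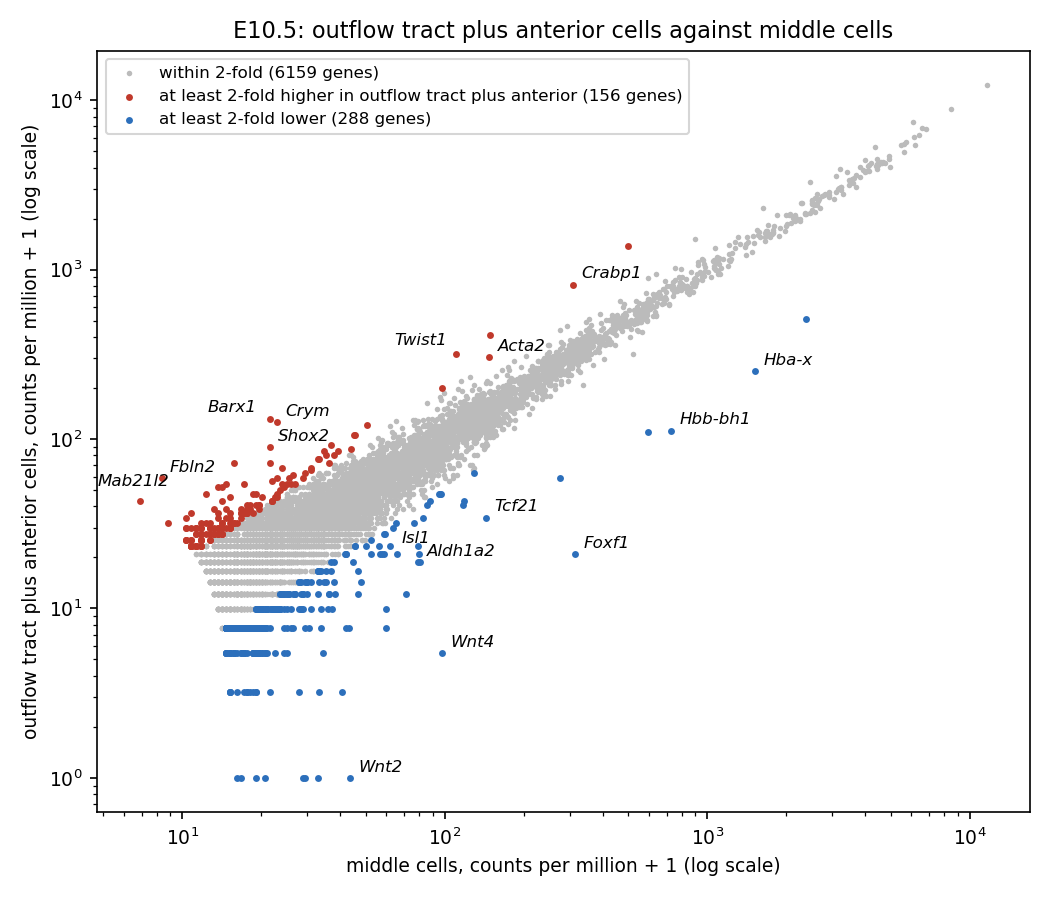
Each point is 1 of the 6603 genes tested, with its CPM plus 1 in middle cells on the horizontal axis and in outflow tract plus anterior cells on the vertical axis, both log scales. Red points are the 156 genes at least 2-fold higher and blue points the 288 at least 2-fold lower; Foxf1, Wnt4, Wnt2 and the haemoglobins are among those farthest below the diagonal, and Fbln2, Crym and Barx1 lie above it.

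Genes of foregut and posterior second heart field mesenchyme included Foxf1, Wnt2 and Tbx5, which had 9, 0 and 0 counts in the pooled cells. Of 14 listed genes of lung, stomach and foregut mesenchyme, 6 had enough counts, 5 of these were lower and 1, Barx1, was higher, with a median log2 ratio of -2.36. Of 17 listed genes of the venous pole and its posterior progenitors, 9 had enough counts, 5 were lower and none was higher, with a median of -2.03 against 0.02 over all genes. Tbx5, Wnt2, Wnt2b, Foxf1 and Foxf2 are on both lists, so the counts are not independent. For these and all lists below, the shares over all tested genes were 2.36% higher and 4.36% lower.

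Foxf1 (chromosome 8, 121084386 to 121088144, mm10), a forkhead factor that acts downstream of Hedgehog signalling in splanchnic mesoderm, had 8 counts in outflow tract, 1 in anterior, 639 in middle and 814 in posterior cells. Its level was 40.7 CPM in outflow tract, 3.94 in anterior, 313 in middle and 236 in posterior cells. Both front libraries were therefore far below both others. The pooled level was 15.7-fold lower than middle (log2 ratio -3.97, interval -5.11 to -3.04). A UMI of Foxf1 was present in 6.58% of pooled cells (2.17 to 14.7) and 65.6% of middle cells (60.2 to 70.7), and after every cell was thinned to 4500 UMIs the shares were 5.63% and 57.4%. For comparison, 2 of 25 epithelium-like middle cells (8.0%, 0.984 to 26) held a Foxf1 UMI. The part of free RNA in the Foxf1 counts of the pooled cells was not tested. The epithelium-like cluster had a median of 6145.5 UMIs per cell. None of the 8 outflow tract counts lay in cluster 0, which held 18 of the 31 outflow tract cells: 6 were in the 5 cells of cluster 2 and 2 in the 8 epithelium-like cells.

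Wnt2, a ligand of lung and posterior second heart field mesenchyme, and Tbx5, the T-box factor of the venous pole, were at 0 in both front libraries. Wnt2 had 87 counts in middle (42.6 CPM) and 147 in posterior cells, and Tbx5 had 57 in middle (27.9 CPM) and 159 in posterior cells. None of the 76 pooled cells held a UMI of either gene, which allows a share of cells with a UMI of up to 3.95% (3 of 76), not a limit on cells that express them, against 17.2% and 14.8% of middle cells. Computed with 3 counts over the pooled cells, Wnt2 was at least 6.40-fold lower and Tbx5 at least 4.19-fold lower. Neither bound was as large in 1 library alone, since 3 counts weigh more in fewer cells. For Wnt2 the exact 95% limits were weaker, at 4.74% of pooled cells and 5.10-fold.

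Aldh1a2, which makes retinoic acid, had 7 counts in outflow tract, 1 in anterior and 160 in middle cells. The outflow tract level was 35.6 CPM, the anterior level 3.94 and the middle level 78.4, so the outflow tract lay nearer to middle than the anterior library did. This rested on 1 cell, which held 5 of the 7 outflow tract counts. Without that cell's counts the outflow tract level was 10.2 CPM. The pooled log2 ratio was -2.14 (-3.38 to -1.13). Foxf2, a relative of Foxf1, had 1, 1 and 37 counts in the same order and a ratio of -2.03 (-5.13 to -0.07). The other tested members of the posterior list were within 2-fold: Gata6 at -0.25 (-1.55 to 0.86), Nr2f2 at -0.29 (-0.79 to 0.18), Osr1 at -0.50 (-0.86 to -0.16; every cell held at least 1 Osr1 count, which sets a floor under this ratio's levels) and Nr2f1, the other COUP-TF nuclear receptor, at 0.93 (0.54 to 1.30). Members of 1 list thus lay on both sides of 0.

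Of 10 listed Wnt ligands and R-spondins, which strengthen Wnt signalling at its receptors, 7 had enough counts. Of these, 4 were lower and none was higher, against 4.36% and 2.36% of all tested genes, and their median was -2.16. Wnt4 (chromosome 4, 137277489 to 137299726), a ligand of kidney, gonad and mesothelial tissue, had 1 count in outflow tract, 1 in anterior, 198 in middle and 298 in posterior cells. Its log2 ratio of -4.45 (-7.51 to -2.58) was the lowest among the named genes. Rspo1 had 3, 2 and 143 counts in outflow tract, anterior and middle cells (-2.66, -4.30 to -1.40), and Rspo2 had 3, 5 and 162 (-2.16, -3.40 to -1.15). By contrast Wnt5a, a noncanonical ligand of the second heart field, stood at 68.8 CPM in pooled and 74.0 CPM in middle cells (-0.10, -0.71 to 0.46), and Rspo3 was at 0.93 (0.21 to 1.61).

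The rest of the Wnt list had other counts. Of 9 receptors, 5 were tested and 1 was higher, Lgr4, a receptor for R-spondins, at 1.18 (0.22 to 2.09). Of 7 Wnt targets, 5 were tested and 1 was lower, Tcf7, a transcription factor of the pathway, with 0, 2 and 37 counts in outflow tract, anterior and middle cells. Axin2, the usual target readout, had a ratio of 0.26 (-0.98 to 1.35) on 3, 6 and 34 counts. The target median was 0.26 and the receptor median 0.32.

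**Figure D2:**
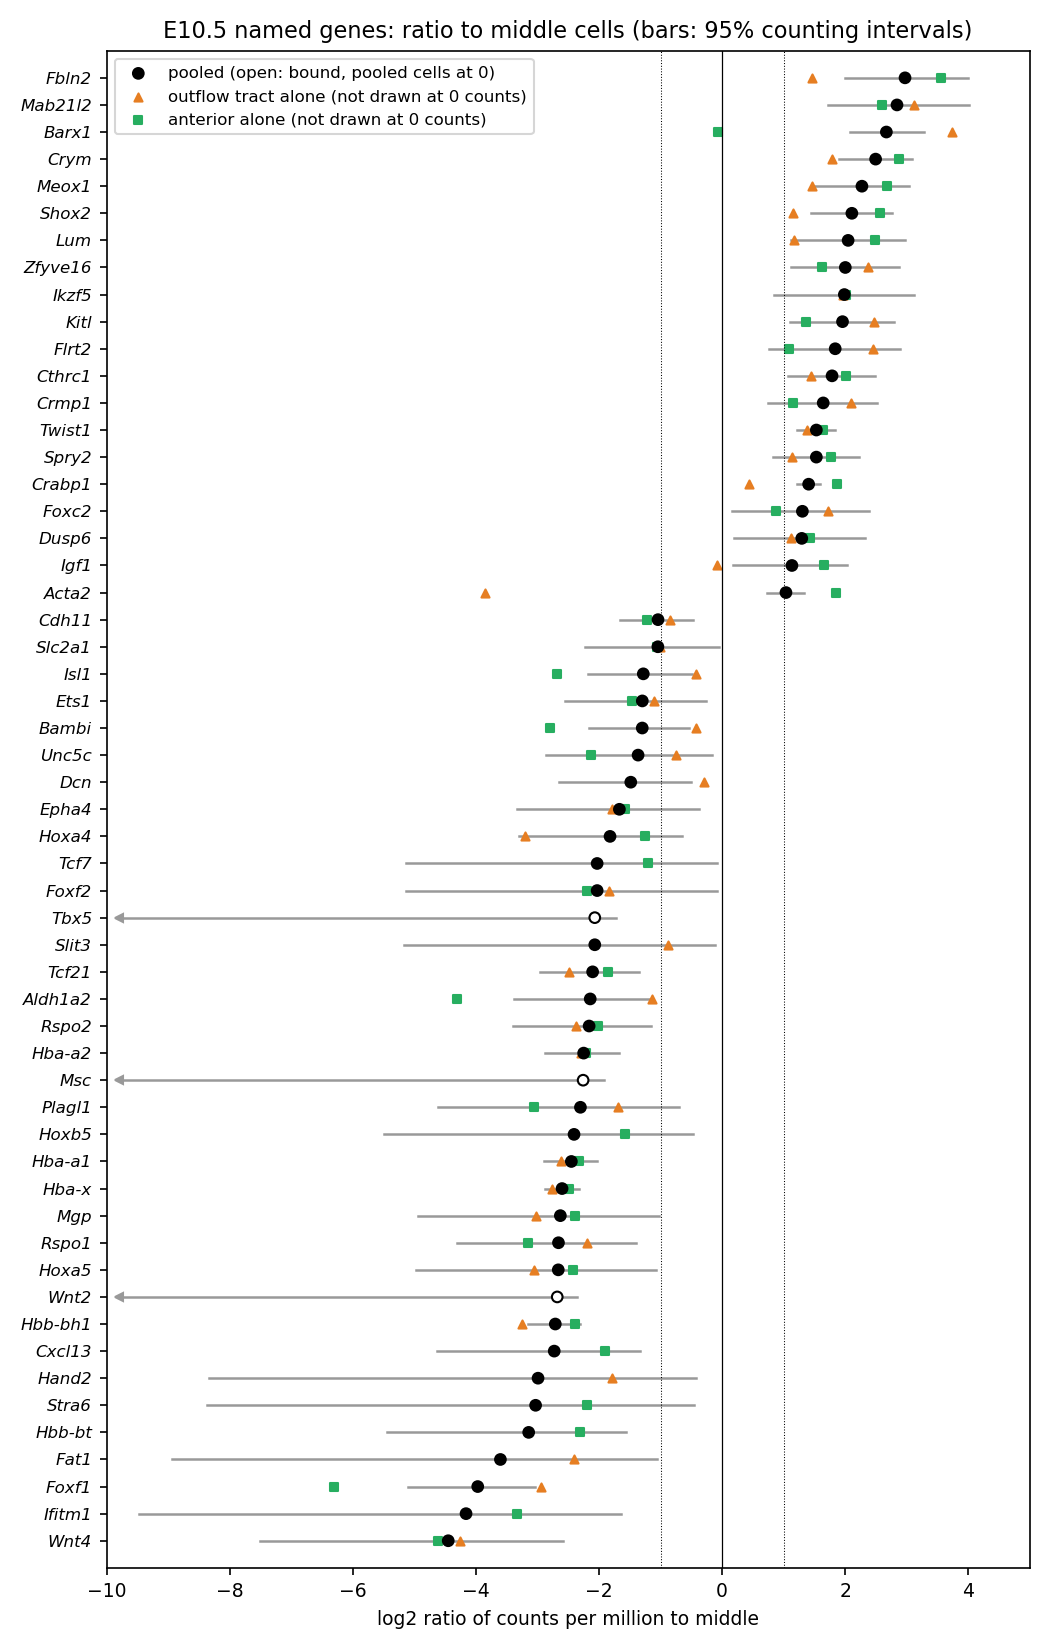
Each row is a named gene (those reported here); the horizontal axis is the log2 ratio of CPM to middle cells for the pooled cells (circles, with 95% counting intervals), the outflow tract alone (triangles) and the anterior library alone (squares), and dotted lines mark 2-fold. The 2 libraries lie close together for Twist1 and Tcf21 and far apart for Barx1, Acta2, Foxf1 and Aldh1a2; open circles are bounds and a library at 0 counts has no symbol.

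No regulator listed for the anterior or pharyngeal progenitors was past 2-fold higher at the front. Of 15 listed genes, 8 were tested, 4 were lower and none was higher, with a median of -0.86. Isl1, a LIM homeobox factor of cardiac progenitors, had 11 counts in outflow tract (56.0 CPM), 3 in anterior (11.8 CPM), 154 in middle (75.4 CPM) and 426 in posterior cells (124 CPM). Its pooled ratio was -1.28 (-2.18 to -0.49), but the outflow tract alone was at -0.43 and the anterior library alone at -2.67. Of the 11 outflow tract counts of Isl1, 8 were in the 8 epithelium-like cells.

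Tcf21, a factor of branchiomeric muscle and epicardial progenitors, had 5, 10 and 292 counts in outflow tract, anterior and middle cells and was lower in both front libraries (pooled -2.10, -2.96 to -1.36). It was present in 14.5% of pooled and 48.9% of middle cells, or 12.7% and 41.2% after thinning. Msc, a related factor of branchiomeric muscle precursors, was at 0 in both front libraries against 65 counts in middle. It was at least 4.78-fold lower when computed with 3 counts, and the exact 95% limit was 3.78-fold. Hand2, a basic helix-loop-helix factor of the outflow tract and arches, had 1 count in the pooled cells and 36 in middle (-2.99, -8.33 to -0.42). Tbx1, the T-box factor of pharyngeal mesoderm, was at 40.7 CPM in outflow tract, 59.1 in anterior and 43.1 in middle cells, a pooled ratio of 0.24 (-0.49 to 0.92), and 2.03 CPM in posterior cells.

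Hox genes give cells their position along the body axis. Of 18 genes of paralogue groups 1 to 6, 9 were tested and 3 were lower, namely Hoxa5, Hoxb5 and Hoxa4. Hoxa5 had 1, 2 and 86 counts in outflow tract, anterior and middle cells and 536 in posterior cells (-2.66, -4.97 to -1.07). Hoxb5 had 0, 2 and 48 counts (-2.41, -5.49 to -0.47), and Hoxa4 had 1, 5 and 96 (-1.82, -3.30 to -0.65). Hoxb4 at -0.72 (-1.35 to -0.13), Hoxb3 at -0.44 and Hoxb2 at -0.47 were within 2-fold and below 0. Hoxa2, which patterns arch mesenchyme, was at 0.82 (0.09 to 1.51), the highest of the 9, and Hoxa3 and Hoxc4 were both at 0.01 (-1.56 to 1.32).

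Among the other named genes lower at the front, Ifitm1, an interferon-induced membrane protein gene, had 1 count in the pooled cells and 81 in middle (-4.16, -9.48 to -1.64), and Fat1, a giant cadherin, had 1 and 55 (-3.60, -8.93 to -1.06). Cxcl13, a chemokine, had 4 and 120 counts (-2.73, -4.63 to -1.33), and Mgp, the matrix Gla protein, had 3 and 84 (-2.63, -4.93 to -1.03). With 1 to 4 pooled counts the size of these differences was poorly bounded, while the direction was the same over the whole interval.

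Twist1 (chromosome 12, 33957671 to 33959829), a basic helix-loop-helix factor of neural crest and cushion mesenchyme, had 56 counts in outflow tract, 87 in anterior, 224 in middle and 193 in posterior cells. In CPM these were 285, 343, 110 and 56.0, so both front libraries were above both others. The pooled ratio was 1.53 (1.22 to 1.84). Twist1 had a UMI in 71.1% of pooled (59.5 to 80.9) and 37.2% of middle cells (31.9 to 42.6), and in 64.8% and 34.7% after thinning.

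Crabp1 (chromosome 9, 54764748 to 54773110), a cytoplasmic retinoic acid binding protein, had 82, 285, 627 and 132 counts in outflow tract, anterior, middle and posterior cells. The anterior level of 1122 CPM was above the outflow tract level of 417 CPM and the middle level of 307 CPM, and the outflow tract was within 2-fold of middle (0.44). The pooled ratio was 1.41 (1.22 to 1.60). A single anterior cell held 82 of the 285 anterior counts, and the next highest held 14; without the top cell the anterior counts were 203. Crabp1 had a UMI in 93.3% of anterior, 64.5% of outflow tract and 57.4% of middle cells.

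Crym (chromosome 7, 120186380 to 120202111), which encodes the thyroid hormone binding protein mu-crystallin, had 15, 41, 45 and 7 counts from front to back (2.50, 1.90 to 3.09). Shox2, a short-stature homeobox factor, had 9, 31, 42 and 42 counts (2.11, 1.45 to 2.77). Meox1, a homeobox factor of somites and sclerotome, had 8, 24, 30 and 19 counts (2.27, 1.51 to 3.04). For these 3 genes the anterior level was the highest of the 4 positions and the outflow tract level the second highest. The rule that named them required both front libraries to be at least 2-fold above middle. In outflow tract alone Shox2 was at 1.15 (-0.07 to 2.21), with a UMI in 5 cells. The outflow tract intervals of Crym and Meox1 lay above no difference. Crym had a UMI in 30.3% of pooled and 6.95% of middle cells, Shox2 in 32.9% and 6.95%, and Meox1 in 25.0% and 7.55%; after thinning the pooled shares were 28.2%, 25.4% and 19.7%. Tcf15, another somite marker, had 2, 11 and 21 counts in outflow tract, anterior and middle cells (1.49, 0.37 to 2.55), while Myf5, Myod1 and Pax7 were at 0 in the pooled cells.

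Mab21l2, a gene of eye and body wall development, had 10 counts in outflow tract, 9 in anterior and 12 in middle cells, a level of 42.2 CPM against 5.88 CPM (2.84, 1.73 to 4.02). Kitl, the ligand of the Kit receptor, had 15, 9 and 28 counts (1.96, 1.11 to 2.80). Cthrc1, a secreted collagen triple helix protein, had 11, 21 and 42 counts (1.79, 1.08 to 2.49). Flrt2, a cell surface guidance ligand, was at 1.84 (0.76 to 2.89) and Crmp1, a cytoskeletal mediator of semaphorin signals, at 1.64 (0.74 to 2.52). The rule that named these 5 genes required both front libraries to be at least 2-fold above middle. The same rule named the endosomal protein gene Zfyve16 (2.00, 1.13 to 2.87) and the zinc finger gene Ikzf5 (1.99, 0.84 to 3.12). In the anterior library alone, the intervals of Flrt2 (1.08, -0.70 to 2.55) and Crmp1 (1.15, -0.19 to 2.31) included no difference. The anterior intervals of the others did not.

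Pharyngeal arch and neural crest mesenchyme genes did not move as 1 group. Of 26 listed, 14 were tested, 3 were higher (Twist1, Crabp1 and Barx1) and 5 were lower, with a median of -0.16. The homeobox factors of limb and arch mesenchyme split: Prrx1 was at 0.90 (0.56 to 1.24), while Prrx2 was at -0.05 (-0.35 to 0.25) and Alx1 at -0.08 (-0.88 to 0.64). Ets1, a factor of migrating neural crest and endothelium, had 4, 4 and 89 counts (-1.30, -2.55 to -0.26). Ednra, the endothelin receptor of arch mesenchyme, had 2, 1 and 31 counts (-1.19, -3.54 to 0.49). Sox10, the defining marker of migratory neural crest, had 2 counts in outflow tract, 0 in anterior and 1 in middle cells.

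Matrix genes were mostly within 2-fold. Of 10 tested collagens among 13 listed, none was past 2-fold, and their median was 0.29. Of 14 tested glycoproteins and proteoglycans, 2 were higher and 3 lower. Fbln2, a fibulin of cushions and vessel walls, had 4 counts in outflow tract, 22 in anterior and 15 in middle cells (2.97, 2.00 to 4.00). It was found in 28.9% of pooled and 4.23% of middle cells. In outflow tract alone Fbln2 was at 1.47 (-0.58 to 3.12), an interval that included no difference. Lum, the proteoglycan lumican, had 5, 16 and 23 counts (2.05, 1.12 to 2.97), but its ratio was 0.84 without Scrublet doublets. In outflow tract alone Lum was at 1.17 (-0.58 to 2.60). All 5 outflow tract and 18 of the middle counts were in the cluster called epithelium-like. That cluster held 76 cells, but 60 at resolution 1.0, where Lum was a leading gene of another, unnamed cluster. Dcn, the related proteoglycan decorin, had 9, 0 and 114 counts (-1.48, -2.65 to -0.51), so these relatives lay on opposite sides of 0; 1 middle cell held 32 of the 114, and Dcn was at -0.80 after thinning.

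**Figure D3:**
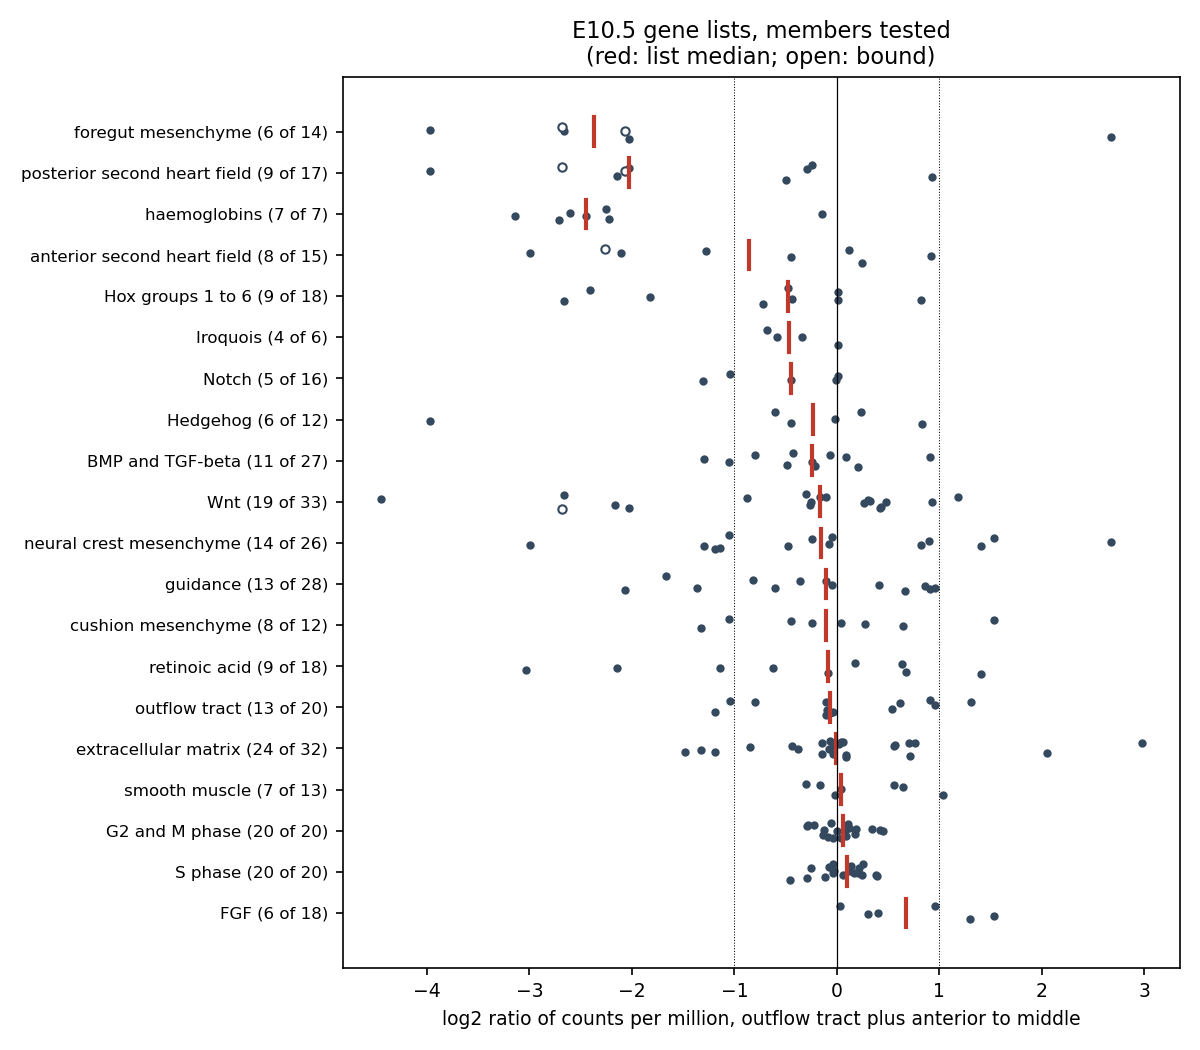
Each point is a gene with 30 or more counts, each row a gene list with the number tested of the number listed, and the horizontal axis is the log2 ratio of CPM of outflow tract plus anterior to middle cells; red bars are list medians, open points are bounds and dotted lines mark 2-fold. Haemoglobins and most foregut and posterior second heart field genes lie to the left of 0, with Barx1 and Nr2f1 to the right. All 6 tested genes of the fibroblast growth factor (FGF) list lie to the right of 0, and the cell cycle lists lie within 2-fold.

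Feedback targets of FGF signalling, a pathway known to sustain anterior second heart field progenitors, lay above 0 in the pooled cells. The 6 tested genes of 18 listed were 5 feedback targets and 1 receptor, the receptor at 0.03. All 6 had pooled ratios above 0 and 2 were higher, with a median of 0.68, but no FGF ligand had enough counts. The median was 1.13 in the outflow tract alone and 0.12 in the anterior library alone. Spry2, a feedback inhibitor, had 10, 20 and 47 counts in outflow tract, anterior and middle cells (1.53, 0.82 to 2.22; 0.95 after thinning). It was present in 30.3% of pooled and 11.2% of middle cells, and in 18.3% and 11% after thinning. Dusp6, the phosphatase that ends FGF-driven kinase activity, had 5, 8 and 24 counts (1.30, 0.20 to 2.33). Spry1 was at 66.1 CPM in outflow tract, 7.88 in anterior and 17.1 in middle cells, so its pooled value of 0.96 (-0.02 to 1.87) came from the outflow tract.

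Other signalling lists showed single members rather than a common shift. In the retinoic acid list, 9 of 18 were tested, 1 was higher (Crabp1) and 3 were lower, namely Aldh1a2, the retinol transporter Stra6 (-3.03, -8.37 to -0.46) and the receptor gene Rarb (-1.14, -3.09 to 0.33), and Crabp2 was at 0.68 (0.44 to 0.91). In the Hedgehog list, 6 of 12 were tested and Foxf1 was the 1 past 2-fold. Ptch1, the receptor and a standard target, was at 56.0 CPM in outflow tract, 15.8 in anterior and 50.5 in middle cells, and Gas1, a co-receptor, was at 0.83 (0.46 to 1.19). In the bone morphogenetic protein (BMP) and TGF-beta list, 11 of 27 were tested and 2 were lower. These were Msx2, with an interval that included no difference, and the decoy receptor gene Bambi. Bambi had 12, 3 and 167 counts (-1.30, -2.17 to -0.53), with the outflow tract alone at -0.42 and the anterior library at -2.79. In the Notch list, 5 of 16 were tested and the lower genes were Hey1 (-1.31, -2.98 to 0.00) and Jag1 (-1.04, -3.40 to 0.65).

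Outflow tract genes were represented on both sides. Of 20 listed, 13 were tested, 1 was higher and 2 lower, with a median of -0.07. Foxc2, a forkhead factor of arch arteries and second heart field, had 7, 5 and 22 counts (1.31, 0.16 to 2.38), and its ratio was 0.74 without cells of named clusters. Sema3c, the outflow tract semaphorin, had 11, 7 and 42 counts (0.96, 0.07 to 1.79), and Cxcl12, a chemokine, had 41, 46 and 258 (0.61, 0.24 to 0.97). Among guidance genes, 13 of 28 were tested and 3 were lower: Epha4 (-1.67, -3.33 to -0.38), Unc5c (-1.36, -2.86 to -0.17) and Slit3 (-2.07, -5.17 to -0.12). The mesenchymal cadherin gene Cdh11 had 14, 14 and 261 counts (-1.04, -1.66 to -0.48).

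The front libraries differed from each other. Among 2266 genes with at least 30 counts in the outflow tract and anterior libraries, 74 (3.27%) were at least 2-fold higher and 71 (3.13%) at least 2-fold lower in outflow tract than in anterior cells. Barx1, a homeobox factor of stomach mesenchyme and pharyngeal arches, had 54 counts in outflow tract (275 CPM), 5 in anterior (19.7 CPM), 42 in middle (20.6 CPM) and 2484 in posterior cells (720 CPM). The outflow tract exceeded the anterior library by a log2 ratio of 3.80 (2.49 to 5.48), and the anterior and middle levels lay within counting error of each other (-0.06). Of the 59 pooled counts, which gave a ratio of 2.67 (2.07 to 3.28), 54 were in 7 outflow tract cells.

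Those cells also held counts of Dlx genes, homeobox factors of the pharyngeal arches, which were below the minimum and were looked at after their values were seen. Dlx1 had 13 counts in outflow tract, 3 in anterior and 4 in middle cells, and Dlx2 had 13, 3 and 10. Summed over Dlx1, Dlx2, Dlx5 and Dlx6 the level was 183 CPM in outflow tract, 27.6 in anterior, 11.3 in middle and 5.51 in posterior cells. The 11 outflow tract cells with a Dlx count held 54 of the 54 outflow tract Barx1 counts. In the anterior library the 6 cells with a Dlx count held 3 of the 5 Barx1 counts. In middle the 13 cells with a Dlx count, of 331, held 24 of the 42 Barx1 counts. In posterior cells, cells with a Dlx count held 20 of the 2484 Barx1 counts.

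Smooth muscle genes rested on few cells. Acta2, smooth muscle actin, had 2 counts in outflow tract, 134 in anterior and 300 in middle cells, a pooled ratio of 1.04 (0.74 to 1.34). A single anterior cell held 91 of the 134 and 6 anterior cells held any, and without the top cell of each arm the ratio was -0.08. Actc1, cardiac actin, had 0, 32 and 93 counts, 20 of the 32 in 1 anterior cell. Tagln, another smooth muscle gene, had 25, 104 and 373 counts (0.65, 0.35 to 0.94), and the median of the 7 tested of 13 smooth muscle genes was 0.04. Myocd, the smooth muscle coactivator, was at 0 in the front and middle libraries.

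Other genes that set the front libraries apart were Itm2a, with 3 counts in outflow tract and 34 in anterior cells (-3.13, -5.48 to -1.46), Gm266 with 5 and 37 (-2.52, -4.22 to -1.17), the neurotrophin gene Bdnf with 4 and 28 (-2.44, -4.41 to -0.92) and Mlf1 with 7 and 40 (-2.15, -3.55 to -0.97). Higher in outflow tract were the RNA helicase gene Ddx3x with 24 and 9 (1.78, 0.63 to 3.07), the splicing factor gene Zrsr2 with 29 and 11 (1.77, 0.72 to 2.92) and Gtf2i with 28 and 11 (1.72, 0.67 to 2.87). Mlf1 was the 1 of these 7 past 2-fold in the pooled comparison (1.23, 0.69 to 1.75), and its outflow tract value was -0.32. Epithelial markers also differed: the 11 genes summed to 463 CPM in outflow tract, 27.6 in anterior and 400 in middle cells. Epcam had 27, 2 and 260 counts, and Foxa2 and Nkx2-1 were at 0 in both front libraries.

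**Figure D4:**
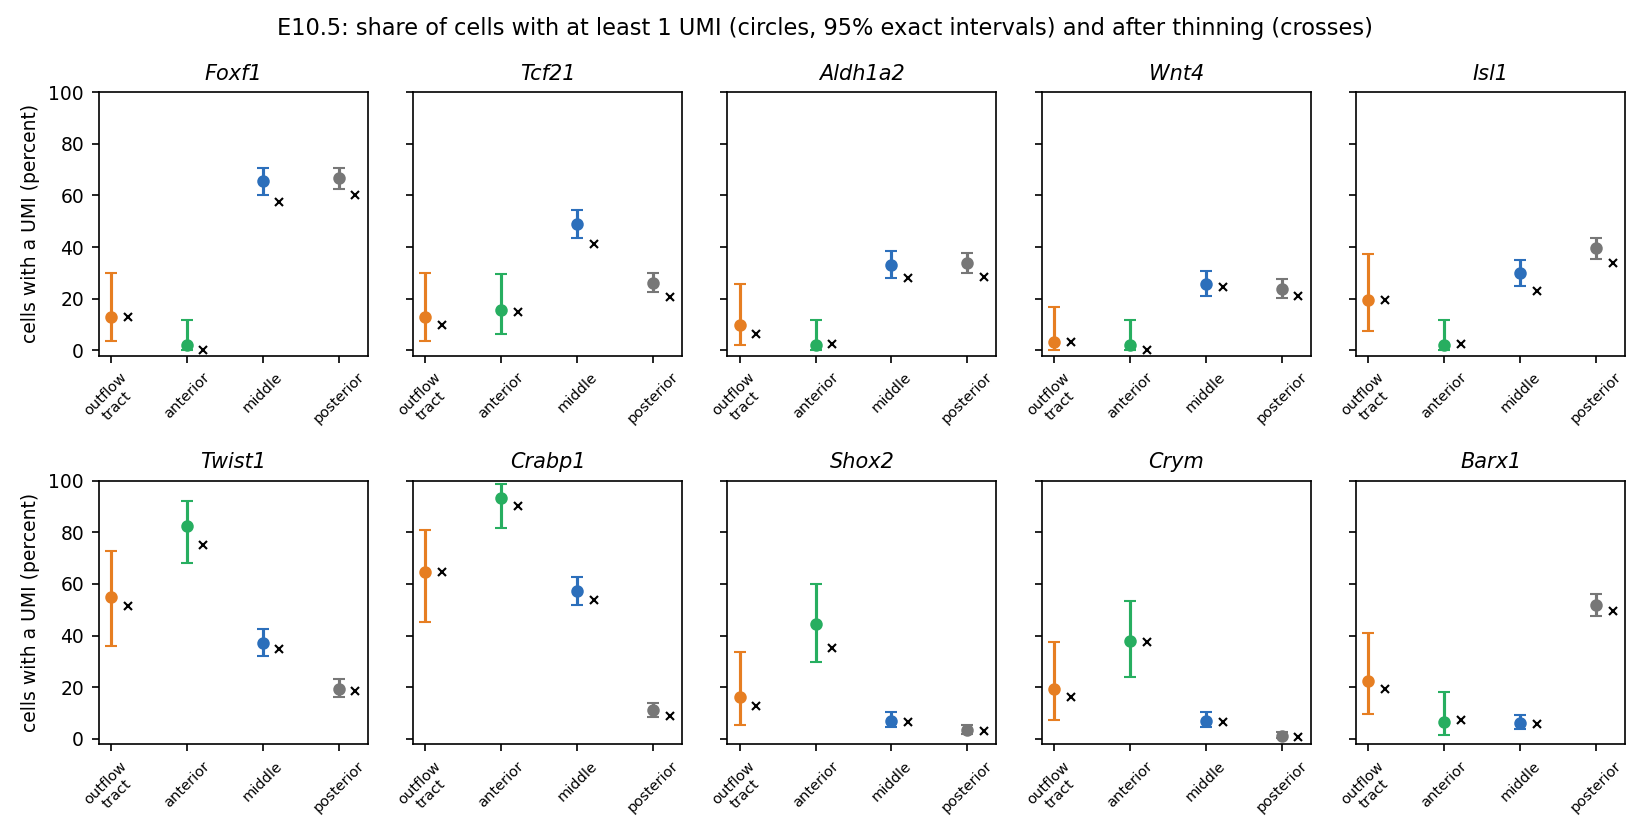
Each panel shows, for 1 gene, the percent of E10.5 cells with at least 1 UMI at each of 4 positions (circles with 95% exact intervals) and the percent after thinning each cell to 4500 UMIs (crosses). Foxf1, Aldh1a2 and Wnt4 are low in both front libraries and near equal in middle and posterior, Twist1, Crabp1, Shox2 and Crym are highest in anterior cells, and Barx1 is higher in outflow tract than in anterior or middle cells.

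Haemoglobin counts were lower in both front libraries. All 7 haemoglobin genes were tested, 6 were lower and the median ratio was -2.45. Hba-x, embryonic zeta globin, had 44 counts in outflow tract (224 CPM), 69 in anterior (272 CPM) and 3104 in middle cells (1521 CPM), a ratio of -2.60 (-2.88 to -2.33). Hbb-bh1, an embryonic beta-type globin, had 15, 35 and 1482 counts (-2.71, -3.15 to -2.30). Haemoglobins made up 0.101% of outflow tract, 0.109% of anterior and 0.556% of middle counts.

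Part of the middle haemoglobin was in few cells: 1 middle cell held 3674 of 11356 counts, and 3 middle cells had over 10% haemoglobin. The median cell held 7 haemoglobin counts in outflow tract, 6 in anterior and 11 in middle. Without its top cell the middle library was at 0.378%. Hba-x had a UMI in 77.6% of pooled and 94.3% of middle cells, so low counts of this gene were spread over most cells. Hbb-bh1 had a UMI in 48.7% of pooled and 68.3% of middle cells. Hba-a2 had a UMI in 22 of 76 pooled and 148 of 331 middle cells. The erythroid marker Alas2 had 0 counts in the pooled cells and 6 in middle cells. The part of free RNA in the other differences was not tested.

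The cells of the 2 arms were also compared inside a single cluster of the E10.5 cells. Cluster 0 held 61 of the 76 pooled cells and 80 of the 331 middle cells; it was left unnamed, since smooth muscle genes (Acta2, Tagln, Myl9) stood among its leading genes beside genes of arch mesenchyme. Clusters were built from these same counts, so the genes that define it are held partly constant and its cell numbers are not a result. Within it 54 of 3647 genes with 30 or more counts were higher and 67 were lower in the pooled cells.

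The differences of Foxf1, Wnt4, Aldh1a2 and Hoxa5 were present inside the cluster. Foxf1 had 1 count in 61 pooled cells and 85 counts in 80 middle cells (-5.98, -11.30 to -3.46), with a UMI in 1.64% and 46.2% of cells. Wnt4 had 1 and 52 counts (-5.27, -10.60 to -2.73), Aldh1a2 had 1 and 28 (-4.38, -9.73 to -1.78), and Hoxa5 had 2 and 28 (-3.38, -6.49 to -1.39). Fbln2 (2.49, 1.17 to 4.06), Barx1 (1.99, 1.24 to 2.80) and Meox1 (1.43, 0.52 to 2.39) were also more than 2-fold higher there.

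Other differences were smaller inside the cluster. Twist1 was at 331 CPM in pooled and 212 CPM in middle cells (0.64, 0.25 to 1.04), and Crabp1 at 953 and 759 CPM (0.33, 0.11 to 0.54). Crym was at 0.96 (0.34 to 1.60) and Shox2 at 0.66 (-0.03 to 1.37). Rspo2 had 5 counts against 8 (-0.25, -2.21 to 1.55), whereas the 219 middle cells of cluster 2, which held most of the middle library, had 150 of its counts. Hba-x was at -0.85 (-1.21 to -0.50) and Acta2 at -0.69 (-0.99 to -0.39), opposite to its pooled value.

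**Figure D5:**
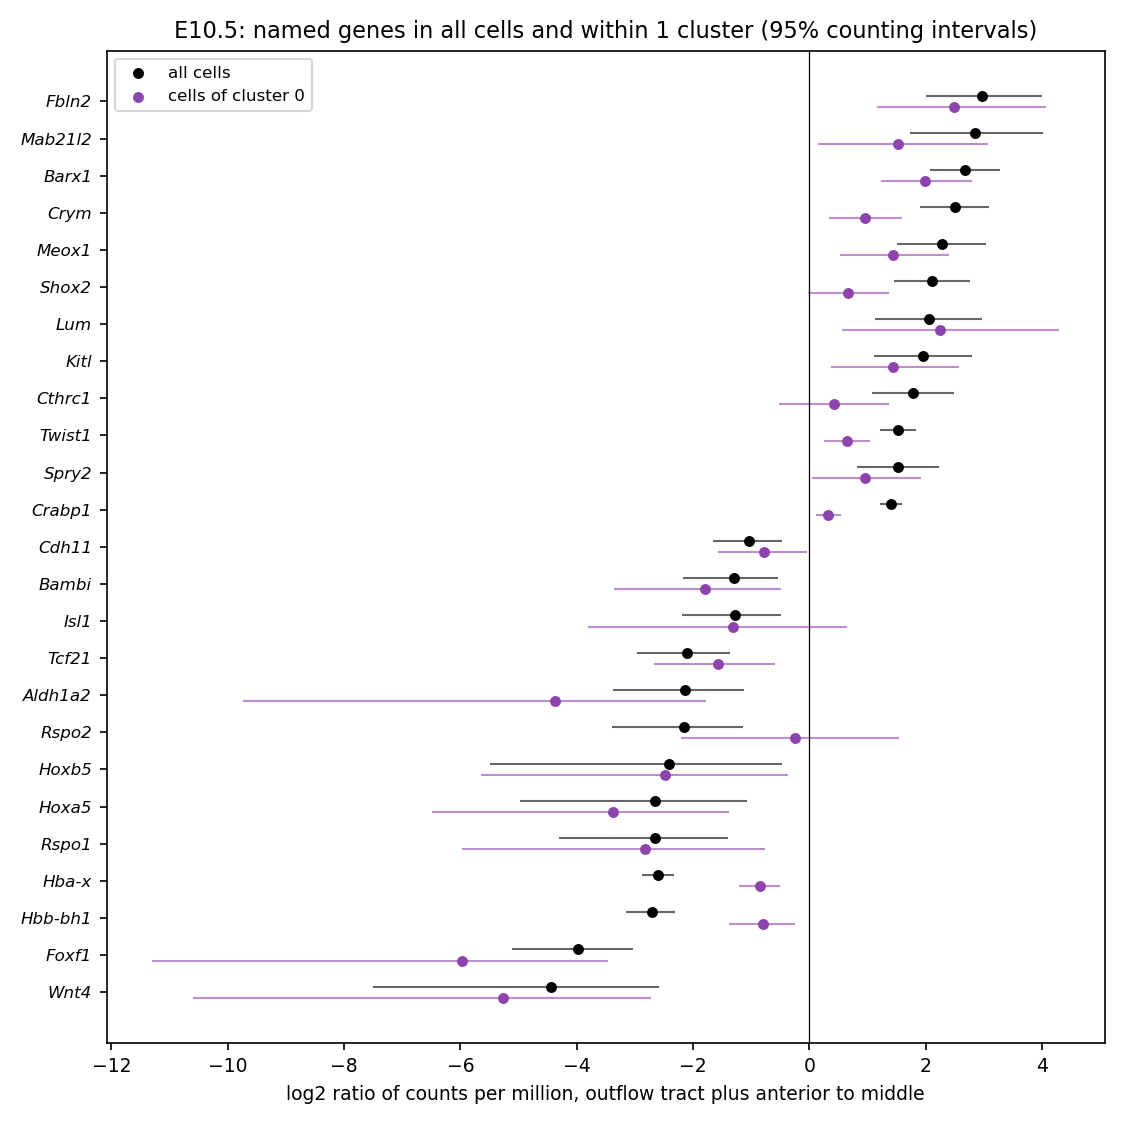
Each row is a named gene and the horizontal axis is the log2 ratio of CPM of outflow tract plus anterior to middle cells, in all cells (black, 76 against 331) and in cells of cluster 0 (purple, 61 against 80), with 95% counting intervals. Foxf1, Wnt4 and Aldh1a2 are as low or lower within the cluster, while Crabp1, Twist1, Shox2, Rspo2 and the haemoglobins lie nearer to 0.

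The E9.5 sample offered the same contrast without the outflow tract, with 54 anterior and 61 middle cells, medians of 23028 and 26700 UMIs per cell and no library in common with E10.5. There, 141 of 6194 genes (2.28%) were at least 2-fold higher and 149 (2.41%) at least 2-fold lower in anterior cells. Of the 156 genes higher at E10.5, 113 had enough counts at E9.5, 7 were also higher and 8 were lower. Of the 288 genes lower at E10.5, 237 had enough counts, 20 were also lower and 20 were higher. Past 2-fold, the genes of E10.5 were thus found in the opposite direction at E9.5 about as often as in the same direction.

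Several foregut and posterior genes had the same direction at both stages. At E9.5 Foxf1 had 22 counts in anterior and 173 in middle cells (-2.67, -3.38 to -2.03), Wnt2 had 0 and 91, Aldh1a2 had 0 and 113, Tbx5 had 0 and 19, and Rspo1 had 1 and 32 (-4.70, -10.04 to -2.11). Crabp1 had 751 and 158 counts (2.55, 2.30 to 2.81) and was again higher in anterior cells. Twist1 was near equal at E9.5 (-0.16, -1.04 to 0.70), and Crym and Shox2 had 1 count each over both libraries. Isl1, with 230 counts in anterior and 127 in middle cells (1.16, 0.84 to 1.49), and Meox1, with 7 and 53 (-2.62, -4.00 to -1.47), went in the direction opposite to E10.5. So did Prrx1, with 21 and 87 counts (-1.75, -2.51 to -1.05), and Nr2f1, with 19 and 94 (-2.0, -2.80 to -1.28).

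Genes of growth and general state were mostly within 2-fold. All 20 S phase and all 20 G2 and M phase genes were tested and none was past 2-fold, with medians of 0.09 and 0.06. None of 12 mitochondrially encoded genes, 89 ribosomal protein genes, 7 cyclins and Cdk inhibitors or 9 developmental timing genes was past 2-fold. Hmga2, a chromatin protein of embryonic growth, was at 315 CPM in pooled and 519 CPM in middle cells (-0.72, -0.98 to -0.46). Of 16 tested genes of the insulin-like growth factor (IGF) axis and imprinted group, Igf1 was higher (1.14, 0.18 to 2.04; outflow tract alone -0.08) and Plagl1 lower, with 2, 1 and 67 counts (-2.30, -4.61 to -0.69). Slc2a1, the main glucose transporter, was the 1 of 14 tested glycolysis and hypoxia genes past 2-fold and was lower. The 4 tested Iroquois homeobox genes were within 2-fold with a median of -0.46, as were the 7 tested immediate early and heat shock genes (-0.11). Of 8 tested cushion genes, Twist1 was higher. Has2, a hyaluronan synthase (-1.32), and Msx2 (-1.05) were lower, both with intervals that included no difference. Of 15 tested mesenchymal state genes, Meox1 and Twist1 were higher and Cdh11 lower. Tbx5 was the 1 of 4 tested T-box genes past 2-fold, and the troponin gene Tnni1 (-1.14) the 1 of 3 tested sarcomere genes. The interval of Tnni1 included no difference.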

How the data were processed

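Single-cell libraries of dissected wild-type mouse second heart field were made on the 10x Chromium and sequenced on a NextSeq, per the labels. For each stage the authors deposited a matrix of whole-number UMI counts, genes by cells, with no normalization. Cell Ranger 3.0, Seurat and the mm10 genome are named per the submitters' processing notes; which gene annotation was used is not given in the sources used here. Of 17348 symbols at E10.5, 17166 were found in GENCODE vM21 (GRCm38), which gave gene positions.

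Each position's counts were summed and scaled to its total (CPM). Each gene has a log2 ratio with an exact conditional Poisson interval (Clopper-Pearson on the split of counts, 95%); shares of cells have Clopper-Pearson intervals. A gene at 0 in 1 arm takes a bound computed with 3 counts there. Intervals, floors and limits cover counting error only, and with 1 library per position no p-value was computed. The ratio and interval were tested on simulated data. Totals ran from 196599 counts (outflow tract) to 2041441 (middle). For thinned shares each cell was reduced to 4500 UMIs, which left out 5 anterior and 40 middle cells.

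Cells were clustered in scanpy 1.11.5 (log counts per 10000; the 2000 most variable genes, leaving out haemoglobins, Osr1 and mitochondrial genes; 20 components; 15 neighbours; Leiden at resolution 0.6). Epithelium-like rests on at least 3 listed markers. That cluster held 76 cells here and 60 at resolution 1.0, so which cells it holds depends on the setting. Doublets marked by Scrublet were kept.

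Named genes were, first, the 12 highest and 12 lowest pooled ratios among genes for which both front libraries were at least 2-fold from middle and at least 10% of cells in the higher arm had a UMI. Next came, from each list, at most 5 members past 2-fold with an interval without 0. Last were the 6 highest and 6 lowest outflow tract to anterior ratios, and Osr1. Other list members are given to complete a family. Some genes that the rule names are not reported here. The members and the 29 gene lists and 19 marker lists were chosen with earlier results of these data known. Alternatives were TMM scaling (edgeR 4.0.16, scaling only), other totals, filters, thresholds, cells and libraries.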

Additional observations from a re-analysis of the deposited data

Results flagged for a closer look

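For 6 named genes the ratio of anterior to middle cells went in opposite directions at the 2 stages. Each was past 2-fold at both stages, with both intervals excluding no difference. Others met the fold but had an interval that included no difference, such as Flrt2. It was at 1.08 (-0.70 to 2.55) at E10.5 and -3.43 (-4.92 to -2.25) at E9.5. The difference between stages was not tested, and each stage is 1 sample with its own depth. On the log2 scale Hba-a2 was at -2.21 at E10.5 and 3.76 at E9.5, a difference of -5.98. Hbb-bh1 was at -2.40 and 3.52, a difference of -5.92, and Hba-x at -2.48 and 2.44, a difference of -4.93. Isl1, the cardiac progenitor factor, was at -2.67 and 1.16, a difference of -3.84. Unc5c, a netrin receptor, was at -2.12 and 1.80, a difference of -3.92. Meox1, the somite homeobox factor, was at 2.69 and -2.62, a difference of 5.30.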

How the results depend on the processing

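The count of higher genes, 156, became 308 with the outflow tract library alone, 54 within cluster 0, 77 with 5 CPM added to both arms, 523 with a minimum of 10 counts, 19 with a minimum of 100 counts and 20 at 3-fold. The count of lower genes, 288, became 520 with the anterior library alone, 445 with the outflow tract alone, 439 without the top cell of each gene in each arm, 67 within cluster 0, 135 with 5 CPM added, 716 with a minimum of 10 counts, 42 with a minimum of 100, 102 at 3-fold and 122 when the interval also had to exclude no difference, an alternative chosen after seeing the data. The cause was not tested. TMM scaling gave 123 higher and 337 lower genes, and leaving out Scrublet doublets gave 157 and 329, of which 112 and 224 were among the 156 and 288. Of 871 alternative values of named genes, 779 stayed within the counting interval, 85 moved outside it and 7 reversed, which counts only a ratio past 2-fold that changed sign: Igf1 (-0.0832), Acta2 (-3.85) and Mlf1 (-0.32) with the outflow tract alone, Barx1 (-0.0633) with the anterior library alone, and Acta2 when thinned (-0.28), without the top cell (-0.0832) and within cluster 0 (-0.69). Of 377 list medians under alternatives, no median past 2-fold changed sign; medians nearer to 0 did, such as sarcomere genes (0.10, thinned -1.14) and smooth muscle genes (0.04, within cluster 0 -0.69). Among named genes within 2-fold, Actc1 (0.64) was at -1.20 when thinned and Bdnf (0.58) at -1.22 with the outflow tract alone. No paired analysis was possible because each stage was 1 sample and each position 1 library. Depth limits the comparison most for genes near 30 counts, where the pooled cells held a median of 6.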

Other observations

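Some of the most abundant genes past 2-fold were on no list, and were chosen after their values were seen. Nnat, the imprinted gene of the membrane protein neuronatin, had 117 counts in outflow tract (595 CPM), 506 in anterior (1993 CPM), 1020 in middle (500 CPM) and 946 in posterior cells (274 CPM), with 89 of the anterior counts in 1 cell. Its pooled ratio was 1.47 (1.32 to 1.61), and the outflow tract was close to middle. Ebf1, a helix-loop-helix factor of mesenchyme and B cells, had 12, 29 and 73 counts in outflow tract, anterior and middle cells (1.35, 0.76 to 1.92). Serpinf1, a secreted factor that restrains vessel growth, had 14, 40 and 101 (1.28, 0.77 to 1.77). Limch1, which regulates nonmuscle myosin, had 24, 23 and 90 (1.24, 0.70 to 1.77), near equal in the 2 front libraries. On the lower side Mt1, a metallothionein, had 9, 0 and 161 counts (-1.98, -3.14 to -1.02), with 49 of the middle counts in 1 cell.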
